A study of Mus musculus with 2 samples.

Results

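Polycomb proteins keep genes silent by marking histones. Polycomb repressive complex 2 (PRC2) adds methyl groups to a lysine of histone H3, and Polycomb repressive complex 1 (PRC1) attaches ubiquitin to histone H2A and compacts chromatin. PRC2 is built on the catalytic subunits Ezh1 or Ezh2 with Eed and Suz12. PRC1 is built on the ubiquitin ligases Ring1 or Rnf2 and 1 PCGF protein such as Bmi1, and its canonical form also carries a CBX protein, which reads the PRC2 mark, and a PHC protein. In blood cells these complexes are known for the self-renewal of stem cells and for the silencing of cell cycle inhibitors, and leukaemias driven by MLL fusions are known to need several of the subunits.

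The genes described here are 10 subunits, 4 of PRC2 (Ezh1, Ezh2, Eed and Suz12) and 6 of PRC1 (Ring1, Rnf2, Bmi1, Cbx7, Cbx8 and Phc1). They were taken by name from the array files, with every non-control spot of each gene. This gave 18 probes, each printed once, of the 41174 probes and 27337 genes on the array. The cells were Mac-1+ c-Kit+ leukaemia-initiating cells, sorted from the bone marrow of female mice with acute myeloid leukaemia. All of them carried the MLL-AF9 fusion gene with YFP, a fluorescent reporter, and they were either Jam3-null or WT for Jam3, which encodes a junctional adhesion molecule. Each genotype was hybridised to 1 single-colour array (2 in all), whose label names 3 mice. The labels used here do not say how the RNA of the mice was combined or how Jam3 was deleted.

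With 1 array per genotype no difference has a replicate check, no test across samples can be made and no p-value is given. Precision is limited by this number of arrays. A difference is the log2 processed signal of the Jam3-null array minus that of the WT array, after each array was divided by its 75th percentile signal, so positive values are signals higher in Jam3-null cells. Where a pair of signals is given, the Jam3-null array comes before the WT array. The error printed after ± is the SD of that difference from the scanner software's error model. It covers measurement only, not the spread between leukaemias or mice. Processed signals are in arbitrary units before scaling, and signals of different probes cannot be compared with each other.

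The share of the 43379 non-control spots that was well above background was 55.0% for Jam3-null and 61.8% for WT. The Jam3 probes had 28.1 and 5.40 (Jam3-null) beside 5.09 and 3.23 (WT), and none of these signals was well above background, so Jam3 did not check the labels. Of the genes used in the sort, Kit differed by 0.09 and Itgam, which encodes a chain of Mac-1, by 3.71. All 14 neutrophil maturation markers on the array were higher by 2-fold or more on the Jam3-null array, with a summed processed signal of 1035568 against 177973 on the WT array. Of 11 measured monocyte and macrophage markers 6 were higher and 1 lower by 2-fold or more, and 4 lay below 0 (summed signal 263484 against 104165). Lyz2 alone held 200766 and 20961 of these sums, and the other markers of that list together were brighter on the WT array. Of 9 mast cell, basophil and eosinophil markers 5 were measured and all 5 were at least 2-fold lower (5644 against 31320), and Ms4a2 stood above background on neither array. With normexp correction 4 were at least 2-fold lower, and Epx, named after its value was seen, moved from -1.24 to -0.97. Lymphoid markers were measured for 5 of 11 genes, of which 1 was at least 2-fold lower (8071 against 11614). That gene, Lck, was at -1.03 and at -0.52 after normexp correction, and was under 2-fold with cyclic loess and the bright-probe percentile too. Klrb1c, named after its value was seen, was above background in Jam3-null only (53.6 and 15.6). It was at least 3.68-fold higher, or at least 1.67-fold after normexp correction. Cd79a, Cd8a and Ncr1 stood above background on neither array. Erythroid and megakaryocyte markers were measured for 5 of 9 genes, of which 3 were at least 2-fold higher (1557 against 728). Itga2b (5.79 and 104, at least 3.75-fold lower) and Pf4 (7.29 and 62.0, at least 2.24-fold lower) were above background on the WT array only. Both were named after their values were seen, and after normexp correction their bounds were 1.85-fold and 1.35-fold. With the bounds before that correction the median of this list was 0.32 in place of 1.73. The part of these cell type differences in the polycomb values below was not tested. In bulk samples fewer cells of a type and less RNA per cell cannot be told apart.

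All 10 polycomb genes were well above background on both arrays, and none of their gene values, each read from the gene's brightest probe, differed by 2-fold. The median difference of the 10 genes was -0.26, with 7 lower and 3 higher on the Jam3-null array. Over all 14361 genes measured on both arrays the median was -0.07 and 55.2% were lower. Bmi1 and Ezh2 had the lowest values, and Cbx7 and Cbx8 the highest. At least 2-fold higher were 0 of the 10, where 10.3% of all measured genes were, and at least 2-fold lower were 0 of the 10, where 8.59% were. At 1.5-fold, 2 genes were higher (Cbx7 and Cbx8) and 1 lower (Bmi1), where 18.4% and 20.3% of all measured genes were. At 3-fold 0 of the 10 were higher or lower, where 4.94% and 2.93% of all measured genes were. Those shares do not set the polycomb genes apart from other genes. Of the 10, 6 lay inside the middle 50% of all measured genes, from -0.49 to 0.39. A difference larger than 2 error-model SDs was seen for 5 of the 10 and for 50.9% of all measured genes. The error-model SDs of the 10 genes were 0.20 to 0.22, and 75 other probes of like brightness that were printed repeatedly had a median SD of the difference of 0.04 between their spots.

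**Figure D1:**
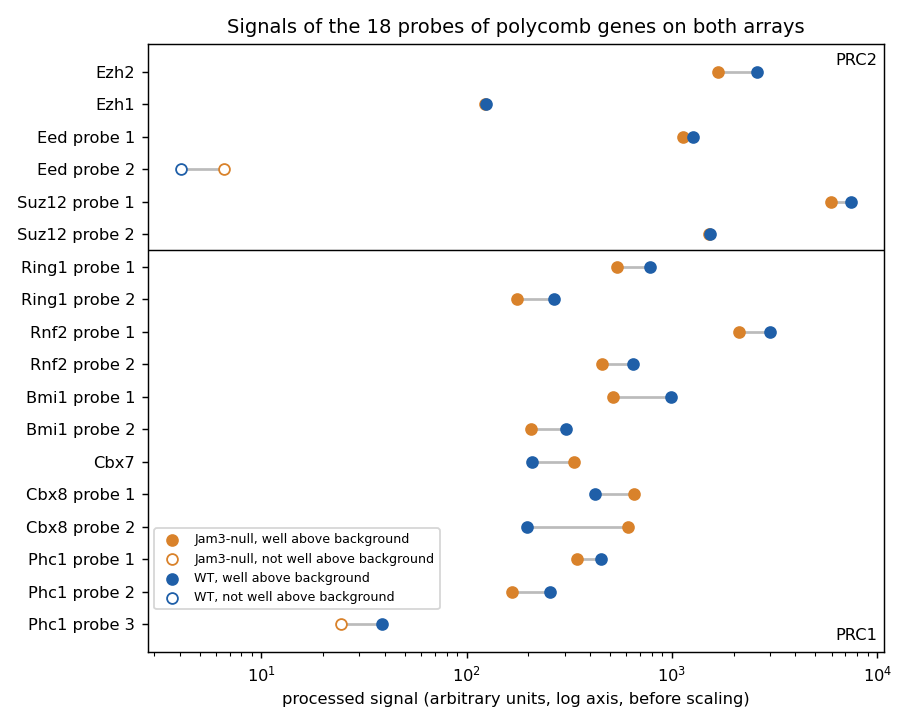
Processed signal (arbitrary units, log axis) of each of the 18 probes on the Jam3-null array (orange) and the WT array (blue), with open circles where the probe was not well above background; rows cannot be compared with each other. The WT point lies to the right for Ezh2, Bmi1, Ring1, Rnf2 and Phc1, and the Jam3-null point lies to the right for Cbx7 and both probes of Cbx8.

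Among the PRC2 genes, Ezh2, the main methyltransferase of dividing cells, had processed signals of 1672 (Jam3-null) and 2587 (WT). The difference was -0.53 ± 0.20, or 1.45-fold lower on the Jam3-null array. Ezh1, the related enzyme with weaker activity that prevails in resting cells, was read at chr11:101053137-101053196 (mm9) and had 123 (Jam3-null) and 125 (WT), a difference of 0.08 ± 0.22. Ezh2 thus lay more than 2 error-model SDs below 0 and Ezh1 within 1 SD of it. Eed, which binds the methyl mark and stimulates the enzyme, had 1134 and 1272 on the Jam3-null and WT arrays, a difference of -0.07 ± 0.20. Suz12, the scaffold of PRC2, was read by 2 probes. The brighter, at chr11:79847251-79847310 (mm9), had 5957 and 7453, a difference of -0.23 ± 0.20, and the other had 1521 and 1531, a difference of 0.09 ± 0.20. The Suz12 probes lay 20273 bases apart on the genome and differed in sign, so Suz12 has no settled direction. Ezh1 and Eed also changed sign with the scaling between arrays (Ezh1 from -0.02 to 0.17, Eed from -0.16 to 0.02).

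The values of Ezh2 and Eed each rest on 1 probe. Both probes are 60 bases long and map to a wider stretch of the mm9 genome, as probes that cross a splice junction do. The Ezh2 probe spans 896 bases and the Eed probe 2910 bases. The probe sequences, in lower case and from the array files, are shown because each carries the whole value of its gene.
Ezh2, chr6:47482047-47482942, - strand: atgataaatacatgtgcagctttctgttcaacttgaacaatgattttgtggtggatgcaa
Eed, chr7:97113321-97116230, - strand: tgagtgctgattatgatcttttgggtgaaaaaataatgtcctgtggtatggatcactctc
Another probe named Eed, at chr7:97130967-97131026, had signals of 6.55 (Jam3-null) and 4.07 (WT) and was not well above background on either. It maps to the + strand, opposite to the Eed probe above, and its low signal says nothing of Eed mRNA.

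The ubiquitin ligase genes of PRC1, Ring1 and Rnf2, were slightly lower on the Jam3-null array at each of their probes. Ring1 had 539 (Jam3-null) and 779 (WT) at its brighter probe (chr17:34158164-34158223, mm9), a difference of -0.43 ± 0.20. The other Ring1 probe, 671 bases upstream, had 175 and 267, a difference of -0.51 ± 0.21. Rnf2, the ligase that provides most of the ubiquitin mark in many cells, had 2124 and 3004 at chr1:153316987-153317046 (mm9), a difference of -0.40 ± 0.20, and 457 and 650 at a probe 1492 bases upstream, a difference of -0.41 ± 0.21. The differences of the Rnf2 probes were 0.01 apart and those of the Ring1 probes 0.07 apart. Over the 5177 genes with several probes measured on both arrays, the median range between probes was 0.30.

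Bmi1, the PCGF subunit known for the self-renewal of blood stem cells and for silencing Cdkn2a, had the lowest value of the 10. Its brighter probe, at chr2:18607987-18608046 (mm9), had 519 (Jam3-null) and 990 (WT). The difference was -0.83 ± 0.20, or 1.78-fold lower. The other probe, 2681 bases upstream, had 207 and 305, a difference of -0.47 ± 0.21. Both probes were lower, and 12.2% of all measured genes had a value as low as the brighter one or lower. Phc1, a polyhomeotic subunit that lets PRC1 complexes polymerise, was lower at each of its measured probes. The brightest, at chr6:122268298-122268357 (mm9), had 344 (Jam3-null) and 449 (WT), a difference of -0.29 ± 0.21, and a probe 255 bases downstream had 166 and 255, a difference of -0.53 ± 0.21. A further Phc1 probe, 3744 bases upstream, was well above background on the WT array only (24.4 and 38.6).

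The CBX genes among the 10 went the other way. Cbx7, a reader of the PRC2 mark known to favour self-renewal of blood stem cells, had 335 (Jam3-null) and 209 (WT). The difference was 0.78 ± 0.21, or 1.71-fold higher, on its only probe, at chr15:79746268-79746327 (mm9). Cbx8, a reader of the same class that is known to bind AF9, the fusion partner of MLL in these leukaemias, was higher at both of its probes but by unequal amounts. The brighter had 656 (Jam3-null) and 421 (WT), a difference of 0.74 ± 0.20, or 1.67-fold. The other had 614 and 197, a difference of 1.74 ± 0.21, or 3.34-fold. The probes differed by 1.0, and 9.0% of genes with several measured probes had a range that wide or wider. With the mean of both probes Cbx8 was at 1.24 and past 2-fold, so whether Cbx8 counts as 2-fold higher depends on the probe rule. Its direction was the same at both probes.

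The brighter Cbx8 probe is shown by its leading 30 of 60 bases, since the Cbx8 value was read from it (mm9 coordinates).
Cbx8 brighter probe, chr11:118899777-118899836, - strand: aattatctctagagttctattttctattag
Whether the Cbx8 probes read different transcript ends was not tested, and an mm9 gene annotation was not used here.

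**Figure D2:**
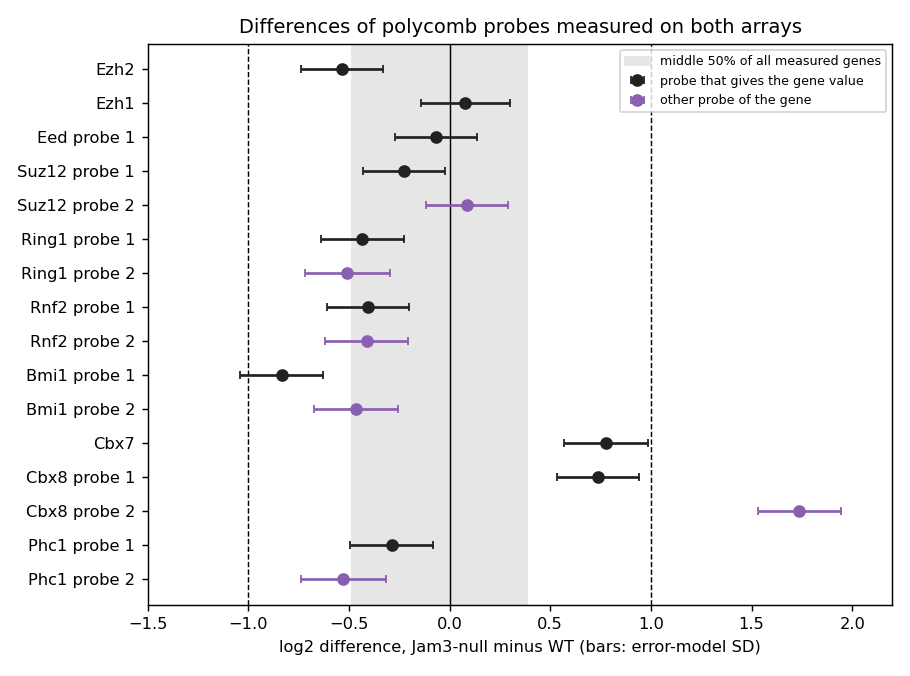
Log2 difference, Jam3-null minus WT, of the 16 polycomb probes measured on both arrays, with bars for the error-model SD, grey for the middle 50% of all measured genes and dashed lines at 2-fold. Of these probes 11 are below 0 and 5 above it, and only the dimmer Cbx8 probe lies past a dashed line.

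Of the 6 genes with more than 1 probe measured on both arrays, 5 had all probes on the same side of 0, the exception being Suz12. Under the other scalings, background correction and probe rule that were run, Bmi1 ranged from -0.93 to -0.65, Ezh2 from -0.63 to -0.42, Ring1 from -0.53 to -0.36, Rnf2 from -0.50 to -0.28 and Phc1 from -0.41 to -0.21. Cbx7 ranged from 0.65 to 0.85 and Cbx8 from 0.64 to 1.24. These 7 genes kept their sign in each of those settings. The value of Suz12 ranged from -0.32 to -0.06 and kept its sign too, though its probes differed in sign.

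**Figure D3:**
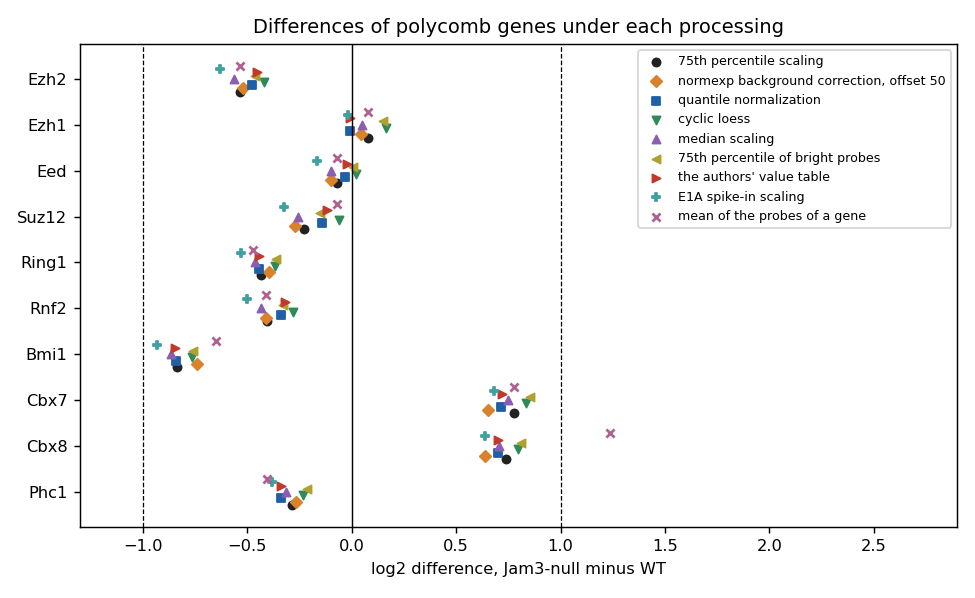
Log2 difference, Jam3-null minus WT, of each of the 10 genes under the 75th percentile scaling and 8 other processings, marked by symbol, with dashed lines at 2-fold. Ezh1 and Eed straddle 0, and the only point past 2-fold is Cbx8 with the mean of its probes.

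To show the promoter sequences behind these values, RefSeq windows of 300 bases (250 before and 50 after the annotated start, build GRCm38.p6) were read for all 10 genes and searched on both strands for 4 motifs, none of which contains another. They were the E2F motif, spelled TTTCCCGC, TTTGGCGC, TTTGCCGC or TTTCGCGC, the E-box CACGTG, the cyclic AMP response element TGACGTCA and the CCAAT box. E2F factors drive genes of DNA replication, and the E-box is bound by MYC and related factors. An E2F motif was present in 2 of the 10 windows (Ezh2 and Suz12) and in 2.26% of 32851 promoter windows. An E-box was present in 2 (Bmi1 and Cbx8) against 7.15%, and the response element in 1 (Cbx8) against 1.79%. The CCAAT box, a common promoter element, was present in 5 (Cbx7, Cbx8, Eed, Ezh2 and Suz12) against 37.4%. The windows of the 4 genes with one of the rarer motifs follow, with those motifs in capitals and the CCAAT box unmarked.
Ezh2 promoter, chr6:47594981-47595280, - strand: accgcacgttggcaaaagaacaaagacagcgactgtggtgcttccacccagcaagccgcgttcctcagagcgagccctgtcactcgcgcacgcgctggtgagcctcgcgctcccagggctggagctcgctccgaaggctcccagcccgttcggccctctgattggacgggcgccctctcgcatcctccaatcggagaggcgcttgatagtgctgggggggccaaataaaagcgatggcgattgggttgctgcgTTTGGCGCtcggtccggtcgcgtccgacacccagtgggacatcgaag
Suz12 promoter, chr11:79992856-79993155, + strand: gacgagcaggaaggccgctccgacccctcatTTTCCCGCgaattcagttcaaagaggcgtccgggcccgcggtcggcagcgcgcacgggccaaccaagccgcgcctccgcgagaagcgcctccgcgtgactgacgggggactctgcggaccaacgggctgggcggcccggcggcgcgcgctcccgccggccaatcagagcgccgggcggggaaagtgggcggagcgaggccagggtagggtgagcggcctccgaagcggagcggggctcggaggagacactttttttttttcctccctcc
Bmi1 promoter, chr2:18676768-18677067, + strand: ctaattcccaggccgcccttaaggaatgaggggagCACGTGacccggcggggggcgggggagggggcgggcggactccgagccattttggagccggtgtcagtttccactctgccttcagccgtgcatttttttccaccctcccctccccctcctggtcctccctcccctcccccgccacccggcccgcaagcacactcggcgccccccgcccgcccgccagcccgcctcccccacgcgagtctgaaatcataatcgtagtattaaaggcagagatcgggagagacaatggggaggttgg
Cbx8 promoter, chr11:119040864-119041163, - strand: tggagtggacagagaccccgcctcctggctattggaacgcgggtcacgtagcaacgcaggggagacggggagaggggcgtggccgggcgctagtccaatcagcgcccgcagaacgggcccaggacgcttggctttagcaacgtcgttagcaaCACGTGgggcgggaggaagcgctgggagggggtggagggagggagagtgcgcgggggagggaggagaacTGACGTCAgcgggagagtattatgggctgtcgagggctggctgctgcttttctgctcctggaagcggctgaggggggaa
The E2F motif began 3 bases downstream of the annotated start in Ezh2 and 219 bases upstream in Suz12. The E-box began 215 bases upstream in Bmi1 and 98 bases upstream in Cbx8, where the response element began 29 bases upstream. Bmi1 and Cbx8 both held an E-box and had differences of opposite sign. The windows held from 9 CG pairs in Phc1 to 41 in Suz12, where the median of all windows was 7. The E2F, E-box and response element motifs each contain a CG pair. The shares over all windows are therefore not from windows of like CG content. A match describes letters only, and no binding was measured.

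With paralogs from lists of further polycomb genes added, the CBX, PCGF and PHC families each held both higher and lower genes. Other families shared a direction, with Ring1 and Rnf2 both lower and Rybp and Yaf2 (below) both higher. Cbx2, another CBX gene, had 131 (Jam3-null) and 76.2 (WT), a difference of 0.88 ± 0.22 (0.58 after normexp correction). In the RefSeq gene table Cbx2 and Cbx8 both lie on chromosome 11, and both were higher. Cbx6 and Cbx7 both lie on chromosome 15 and went opposite ways. Cbx6 had 50.4 (Jam3-null) and 273 (WT) at its brighter probe, a difference of -2.34 ± 0.27. The other Cbx6 probe was also lower but by less, at -1.18. The difference of the brighter probe was -1.40 after normexp background correction, which pulls differences between dim signals towards 0.

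Of the 6 PCGF genes, which decide the type of PRC1, 5 were measured and Pcgf2 stood above background on neither array. Pcgf6, of a germ line gene silencing PRC1, had 295 (Jam3-null) and 853 (WT), a difference of -1.44 ± 0.21 with both probes lower. Pcgf1, of the PRC1 that contains Kdm2b and Bcor, was at 0.86, Pcgf5 at 0.59 and Pcgf3 at -0.09 (0.01 after normexp correction), values named after they were seen. Bmi1 and Pcgf6 were thus lower and Pcgf1 and Pcgf5 higher. Of the PHC genes, Phc2 was at -0.33 and Phc3 at 0.37, also named after their values were seen. Rybp, a subunit of variant PRC1 that takes the place of a CBX protein, had 2677 (Jam3-null) and 1487 (WT) (0.94 ± 0.20), with both probes higher. Its paralog Yaf2, named after its value was seen, was at 0.54.

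**Figure D4:**
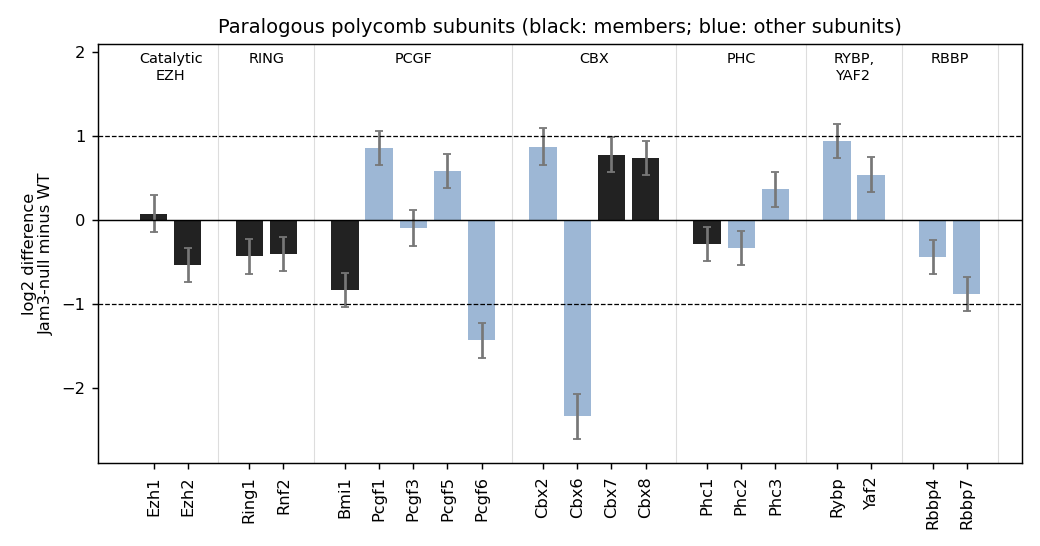
Log2 difference, Jam3-null minus WT, of paralogous polycomb subunits, with error-model SD bars and dashed lines at 2-fold; black bars are from the 10 genes, blue bars are other subunits. Cbx6 and Pcgf6 lie below the lower line, and Cbx2, Cbx7 and Cbx8 lie between 0.74 and 0.88.

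The other PRC2 genes, 9 in number, had a median of -0.03, with 1 higher and 1 lower by 2-fold or more. Phf1, a Polycomb-like protein that helps recruit PRC2, had 561 (Jam3-null) and 270 (WT), a difference of 1.15 ± 0.21. Epop, which links PRC2 to elongin, had 1678 and 5596, a difference of -1.64 ± 0.20. Rbbp7, a histone-binding subunit, had 8414 and 16522, a difference of -0.88 ± 0.20. Its paralog Rbbp4, named after its value was seen, was at -0.44, but its 4 measured probes ranged from -0.63 to 0.77. Phf1 and Epop are the genes past 2-fold, and each rests on 1 probe.

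Of the other canonical PRC1 genes 6 were measured, with a median of 0.11, or -0.24 with Scml2 and Scml4 set at their bounds. By 2-fold or more, 0 were higher and 1 lower, which was Cbx6. Scml2, named after its value was seen, was well above background on the WT array only, with 257 against 5.70 on the Jam3-null array, at least 9.30-fold lower (at least 3.70-fold after normexp correction). For such a bound the dim side was put at the smallest signal that still counted as well above background there. The 17 variant PRC1 genes had a median of -0.08, with 0 higher (1 with cyclic loess, the bright-probe percentile or the authors' value table) and 2 lower (0 with the stricter filter) by 2-fold or more. The lower genes were Pcgf6 and Auts2, an activator partner of PRC1 in neurons, which had 53.6 (Jam3-null) and 425 (WT) (-2.89 ± 0.27, or -1.86 after normexp correction). L3mbtl2 of this list, named after its values were seen, had probes at -0.82 and 1.13 and no settled direction.

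Genes that remove polycomb marks and genes of the trithorax and COMPASS groups were read from lists of their own. Of the 10 measured genes that remove polycomb marks (median 0.01), 1 was higher and 0 lower by 2-fold or more. Kdm6b, a demethylase of the PRC2 mark, had 2815 (Jam3-null) and 1113 (WT), a difference of 1.43 ± 0.20. Its paralog Kdm6a, named after its value was seen, was at -0.01. Asxl2, a cofactor of the deubiquitinase Bap1, was at 0.65, but its 3 measured probes ranged from 0.09 to 0.65. Bap1 itself was at -0.53, with its 2 probes from -0.53 to -0.29. The trithorax and COMPASS list holds writers and erasers of the activating mark, and other genes such as their partners. Of its 16 measured genes (median -0.06), 1 was higher and 0 lower by 2-fold or more. The number higher was 2 with quantile or cyclic loess normalization, the bright-probe percentile or the authors' value table, and 0 with the stricter filter on dim probes. Kdm5b, which erases that mark, had 285 and 64.7 (2.23 ± 0.22, or 1.52 after normexp correction), with both probes higher. Setd1b was at 0.93 and Kmt2a, which encodes MLL, at 0.58. The single Kmt2a probe was not checked for the part kept in the fusion gene.

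Genes at loci that polycomb is known to silence in other cells were read from a list of 28, of which 14 were measured on both arrays. Their median was 0.55, beside -0.07 for all measured genes, with 9 above 0 and 5 below it, and with 2 higher and 0 lower by 2-fold or more. With the 5 genes that have a bound from 1 array set at that bound, the median was 0.58. Cdkn1c, a cell cycle inhibitor, had 11506 (Jam3-null) and 303 (WT), a difference of 5.35 ± 0.20. Hoxa5 had 1250 and 662, a difference of 1.01 ± 0.20, which was 0.94 after normexp correction and so under 2-fold, as it also was with median or spike-in scaling. Cdkn1a, which encodes p21, was at 0.92. Cdkn2a, the classic target of Bmi1, stood well above background in Jam3-null only, with 47.7 against 3.41 on the WT array, at least 3.30-fold higher. Cdkn2b had 41.0 and 12.5, at least 2.84-fold higher, and Hoxb4 had 79.1 and 9.56, at least 5.48-fold higher. After normexp correction these 3 bounds were 1.71-fold, 1.57-fold and 2.28-fold. The genes below 0 were Cebpa at -0.86, Gata6 at -0.61, Hoxa11 at -0.42, Hoxa7 at -0.39 and Egr1 at -0.07. Another 5 genes of the list were well above background on the WT array only, among them Hoxb2 (at least 1.57-fold lower) and Ebf1 (at least 1.22-fold lower), and 6 on neither. After normexp correction the Hoxb2 and Ebf1 bounds were 1.16-fold and 1.07-fold. Cdkn2a, Cdkn2b, Hoxb4, Hoxb2, Ebf1 and the genes below 0 were named after their values were seen, and the list was chosen with results of these arrays known, so it is no independent evidence of a direction.

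**Figure D5:**
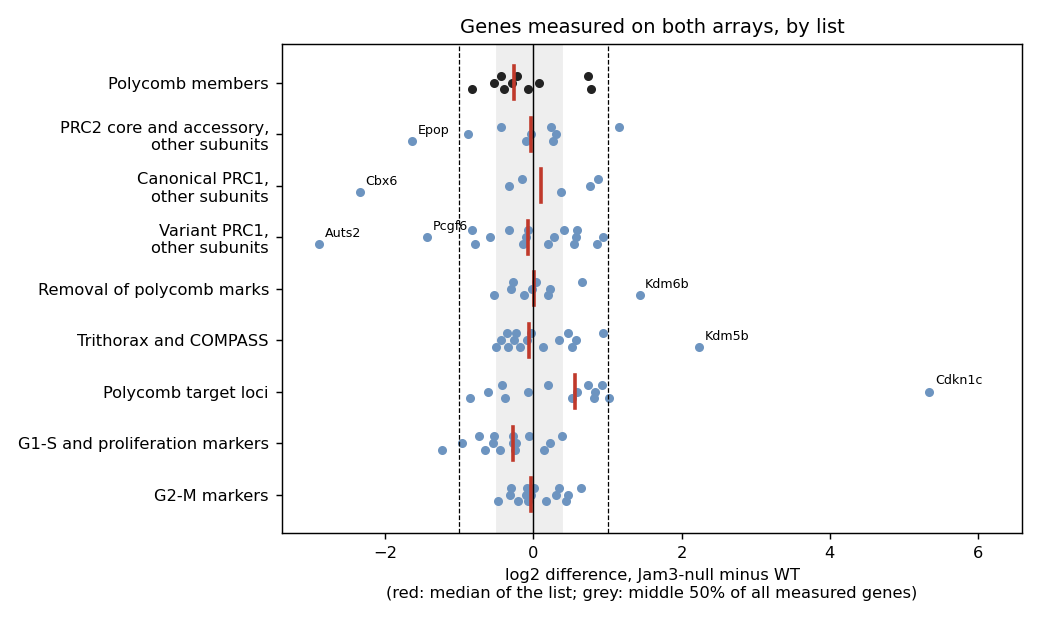
Log2 difference, Jam3-null minus WT, of each gene measured on both arrays, by list, with the list median in red, the middle 50% of all measured genes in grey and dashed lines at 2-fold. The 10 polycomb genes all lie between the dashed lines, and the target loci have the highest median shown, 0.55.

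Markers of dividing cells are given because Ezh2 and other subunits are known to follow the cell cycle. The 15 G1-S markers had a median of -0.28, with 12 lower, 3 higher and 1 at least 2-fold lower, which was Gins2 at -1.24. Mcm3 was at -0.97 and Mcm6 at -0.74. The 15 G2-M markers had a median of -0.04, with 7 higher and 8 lower and 0 past 2-fold in either direction. Mki67 was at 0.64, Bub1b at -0.48 and Ccnb2 at 0.47. The value of Ezh2, -0.53, lay within the range of the G1-S markers, from -1.24 to 0.39. That range also held the lower and upper quartiles of all measured genes, -0.49 and 0.39. Ezh1 at 0.08 and Eed at -0.07 lay inside it too. Lying inside this range therefore does not set Ezh2 apart from other genes. The part of the G1-S markers in the Ezh2 value was not tested.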

How the data were processed

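RNA of 2 sorted cell samples, 1 per genotype, was labelled with Cy3 for a single-colour array, per the labels' protocols. Per the file headers, the deposited intensity values come from Agilent Feature Extraction, version 10.7.3.1, named as 10.7 in the submitters' processing notes. The processed intensity had additive and multiplicative spatial detrending within an array, with a surrogate value for dim spots, and was not normalized between arrays, per the file headers. The deposited value table holds log2 values whose columns have equal distributions (median 5.66 in each). Its scale follows the scanner values (correlation 0.999 per array), it is not centred per gene, and the authors' method for it is not stated in the labels.

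Spots flagged as outliers (151 and 163) were left out and 0 non-control spots were saturated. Log2 signals were scaled to the 75th percentile (668 and 714) and averaged per probe. A gene took its brightest probe and was measured when well above background on both arrays. Both arrays share a slide and a scan, per the file names. Probes were named by accession (27644), by unique older symbol (470) or by the file's name (13042), and the members by the file's name (18). Some items that the rule takes in are not reported here. Named were the 10 genes, the 3 list genes with the largest difference, and others as marked. Members and lists were chosen with earlier results of these data known. With 1 array per genotype nothing was tested across samples. Alternatives were normexp (offset 50), quantile, cyclic loess, median, bright-probe percentile and spike-in scaling, the value table, the mean of probes, 2 filters and folds of 1.5 and 3. R 4.3.3, limma 3.58.1 and Python 3.11.15 were used.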

Additional observations from a re-analysis of the deposited data

How the results depend on the processing

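No paired analysis was possible because each genotype has 1 array. None of the 10 polycomb genes was 2-fold apart under any scaling, background correction or filter that was run, and 1 was 2-fold higher with the mean of a gene's probes (Cbx8, 1.24). At 1.5-fold 2 were higher and 1 lower, and at 3-fold 0 were in either direction. The members' median ranged from -0.35 with scaling to E1A spike-ins (an alternative added once the data had been seen) to -0.15 with cyclic loess, while the median of all genes moved from -0.17 to 0.06 with the same settings. Among lists of polycomb subunits, medians that moved by more than the measurement error were -0.27 for other PRC2 genes and 0.19 for variant PRC1 genes with the brighter 7180 genes alone, 0.15 for variant PRC1 with the mean of probes, and -0.15 for other canonical PRC1 with no filter on dim probes. Among marker lists, the G2-M median moved from -0.04 to 0.18 with cyclic loess. With normexp the neutrophil median moved from 4.48 to 3.63, the monocyte median from 1.31 to 1.05 (1.59 with the stricter filter) and the erythroid median from 1.73 to 1.31 (0.65 with no filter). The mast cell median moved from -2.26 to -1.24 with no filter and the lymphoid median from -0.17 to -0.44 with the stricter filter. Over all genes, 1473 were higher and 1234 lower by 2-fold or more, 2826 and 2920 with no filter on dim probes and 521 and 567 with the stricter filter. Of the genes 2-fold apart 54.4% were higher, 64.1% with cyclic loess and 46.1% with spike-in scaling. Signal over background limits the dim genes, such as Ezh1 and Cbx2. The stricter filter kept Ezh2, Suz12, Eed and Rnf2 only.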
